A study of Mus musculus with 4 samples.

Results

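The genes described here are 8 markers of cholangiocytes, the epithelial cells that line the bile ducts, and of the ductular reaction, namely Epcam, Krt7, Krt19, Krt23, Sox9, Cftr, Muc1 and Prom1. Their probes were found through the transcript accession that the array design gives for each probe, matched to mouse gene symbols. This gave 11 probes for the 8 genes, of 33767 probes that matched any of 23462 genes.

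Liver RNA was measured on 4 arrays with Cy3 label, 1 for each combination of genotype and diet. Control mice (F/F) carried floxed alleles of Lpiat1, also called Mboat7, a gene whose enzyme puts arachidonic acid into phosphatidylinositol, and LKO mice carried the same alleles with an Alb-Cre transgene. All were males on the C57BL/6 background, 24 weeks of age, given a high fat diet (HFD) or standard chow for 18 weeks from the age of 6 weeks. The Alb promoter drives Cre in hepatocytes and can be active in their fetal precursors, from which ducts also arise, and whether duct cells of LKO liver lost the gene was not measured. Whether an array holds RNA of a single mouse or of a pool is not stated. Because each group has 1 array, no difference was tested and none has a replicate check. The Mboat7 probe read 1102 (F/F) and 861 (LKO) on chow, and 1181 (F/F) and 1100 (LKO) on HFD. After scaling, LKO minus F/F was -0.30 (log2) on chow and -0.27 on HFD. Whether that probe lies inside the floxed part is not known from the files used, so it is a weak check of the labels. All 11 hepatocyte genes looked at, such as Alb (albumin), were well above background on every array, as the label liver says.

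Cholangiocytes carry a simple epithelial keratin set, tight junctions and apical channels, and they modify bile by moving chloride, bicarbonate and water. Normal liver holds few of them. In many liver injuries small ducts with irregular lumina, or strings of small duct-like cells, appear at the edge of the portal tract, which is called the ductular reaction, and such cells express the keratins and surface proteins of this set. Some of these genes are not limited to ducts: hepatocytes under stress can express Krt23, and hepatocytes beside the portal tract can express Sox9.

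Signals are the scanner software's background-subtracted intensities, in arbitrary units. The level of a probe is log2 of its signal minus log2 of the 75th percentile of all spots on that array that are not controls, which in chow-fed mice was 222 (F/F) and 213 (LKO), and in HFD-fed mice 263 (F/F) and 296 (LKO). A difference is the difference of 2 such levels. Probes repeated on the array gave the technical spread, as the SD of the log2 difference of 2 spots of the same probe on the same array. It depended on brightness, with 0.65 for signals under 8, 0.55 for 8 to 16, 0.35 for 16 to 32, 0.21 for 32 to 64, 0.18 in the next doubling, 0.13 in the 4-fold range above it and 0.07 for brighter probes still. All bins but the brightest rest on 9 to 29 measurements each, and differences between mice are not part of this spread. Beside it stands the error that the scanner software gave for each spot, combined for the 2 arrays compared. A probe that the software did not flag as well above background on an array has only a bound there. Such a fold sets the other array's value against the dim probe's own signal or a floor, whichever is higher. Where the floor is used, the fold is marked by the words at least. Where the dim probe's own signal is above the floor, the fold is the plain ratio to an unflagged spot and not a lower limit. Both kinds are called bounds here. The floor is the lowest signal of any probe that passed, which in chow-fed mice was 7.80 (F/F) and 8.09 (LKO), and in HFD-fed mice 8.35 (F/F) and 7.81 (LKO).

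Most of these markers were dim in liver. Of the 8 genes, 4 passed the background limit on all 4 arrays (Krt7, Krt19, Krt23 and Sox9), Muc1 on 3 arrays, Epcam and Cftr on 2, and Prom1 on none. Of all 23462 genes, 13981 passed on all 4 arrays, a share not far from that of the markers. By probe, 5 of the 11 passed on every array and 3 on none. The number of the 8 genes well above background was in chow-fed mice 6 (F/F) and 4 (LKO), and in HFD-fed mice 6 (F/F) and 7 (LKO). Of all non-control spots, 54.2%, 53.0%, 54.6% and 57.0% passed on the same arrays.

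**Figure D1:**
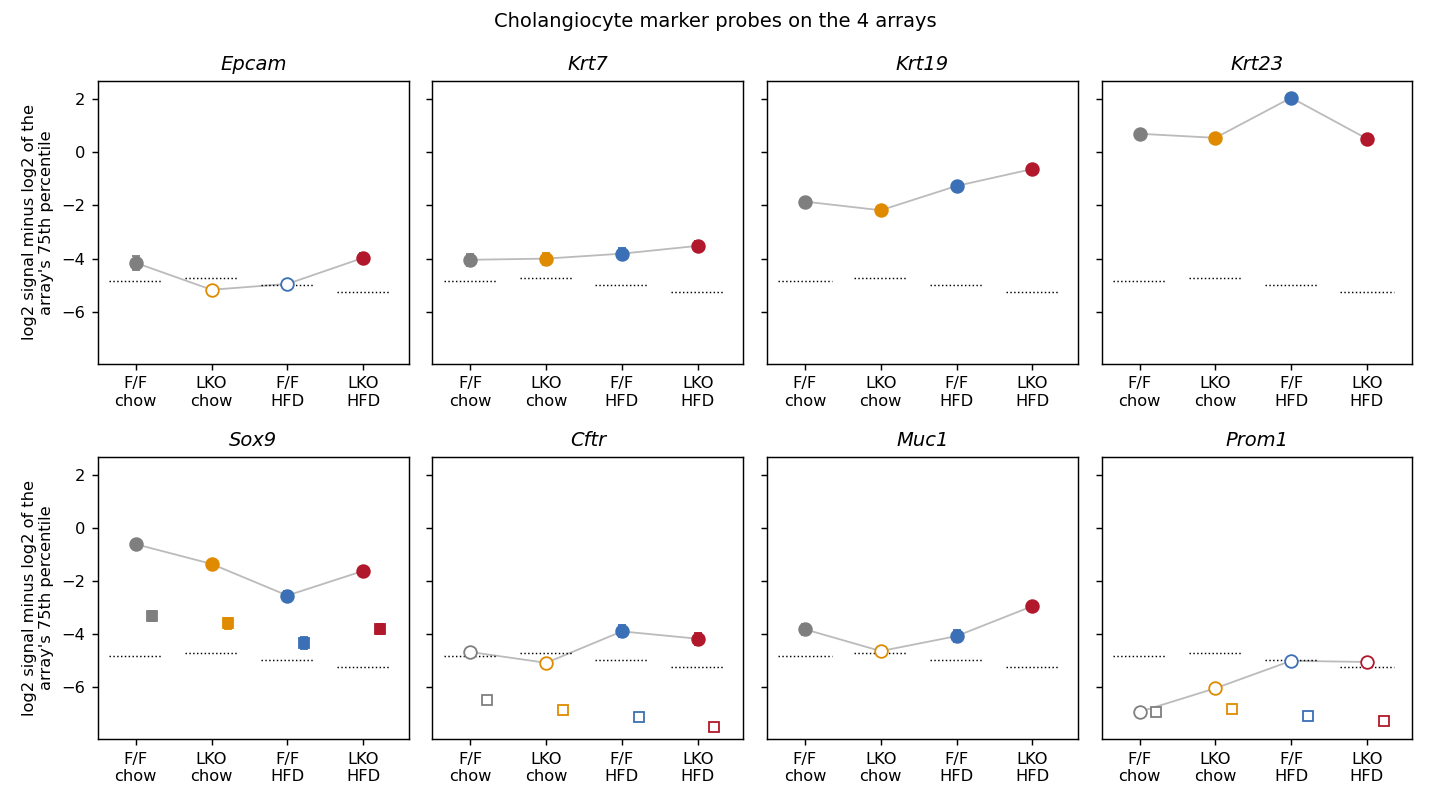
Levels of the 11 probes of the 8 marker genes on the 4 arrays, as log2 signal minus log2 of the array's 75th percentile. Circles are the brightest probe of a gene and squares any other probe, filled where the probe was well above background and open where it was not. Bars are the scanner software's error (1 SD) for filled points, and dotted lines mark the lowest signal well above background on each array. Krt23 stands out on the F/F HFD array, Sox9 is lowest there, and both probes of Prom1 are open throughout.

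Among the keratins, Krt19 was highest in LKO on HFD and Krt23 in F/F on HFD, while Krt7 differed little. Krt19, the smallest acidic keratin and the usual marker of bile ducts, had a signal of 61.3 in F/F chow, 47.1 in LKO chow, 109 in F/F HFD and 191 in LKO HFD. After scaling, LKO was 0.64 (log2) above F/F on HFD and lay below it on chow, with -0.33, and HFD was above chow by 0.59 in F/F and by 1.55 in LKO. The order of the levels was LKO HFD, F/F HFD, F/F chow and LKO chow, and each step was larger than the spread of replicate spots (0.18 to 0.21) and than the software's error (0.21 to 0.22). In whole liver, fewer cells of a type and less RNA per cell cannot be told apart. Krt7, the basic keratin that pairs with Krt19 in ducts, had signals of 13.4, 13.3, 18.7 and 25.8 in the same order of groups. Its level was highest on the LKO HFD array and lowest on F/F chow, but no neighbours in that order differed by more than the spread of replicate spots, and the range over the arrays, 0.52, was below the spread of 0.55 as well.

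Krt23, an acidic keratin, went another way. Its signal was 359 in F/F chow, 311 in LKO chow, 1092 in F/F HFD and 421 in LKO HFD. In F/F on HFD the level stood apart, while the other 3 lay close together. HFD was 2.56-fold above chow in F/F (log2 difference 1.36) and differed from it by -0.04 in LKO, and on HFD LKO was 2.92-fold below F/F (-1.54). On chow, LKO differed from F/F by -0.15, more than the spread of replicate spots (0.13) and less than the software's error (0.20). The difference between LKO chow and LKO HFD was within both.

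Sox9, a transcription factor of duct cells and of their embryonic precursors, was highest in F/F on chow and lowest in F/F on HFD. The brighter of its 2 probes had a signal of 145 in F/F chow, 83.5 in LKO chow, 45.2 in F/F HFD and 96.5 in LKO HFD. HFD was 3.81-fold below chow in F/F, a log2 difference of -1.93, while in LKO it was -0.26. LKO lay below F/F on chow, with -0.74, and above it on HFD, with 0.92. Both chow arrays lay above both HFD arrays, with LKO second on chow and first on HFD, and each step in this order was larger than both measures of error. Before scaling, the signal was higher in LKO HFD (96.5) than in LKO chow (83.5), so the order of these 2 arrays rests on the scaling. The dimmer probe put the scaled levels of the 4 arrays in the same order, with signals of 22.4 in F/F chow, 17.7 in LKO chow, 13.1 in F/F HFD and 21.1 in LKO HFD. Its differences were smaller: -0.28 and 0.52 for LKO minus F/F on chow and on HFD, and -1.02 and -0.22 for HFD minus chow in F/F and in LKO. Of these, -1.02 alone was larger than the spread of replicate spots, which was 0.55 at that brightness.

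The surface proteins were dimmer. Epcam, an adhesion molecule of simple epithelia, had signals of 12.4 in F/F chow, 5.92 in LKO chow, 8.50 in F/F HFD and 18.8 in LKO HFD, well above background on the first and the last of these arrays. In LKO, Epcam was 1.97-fold above F/F on HFD, a plain ratio to an unflagged spot, and at least 1.48-fold below it on chow. HFD was 1.73-fold below chow in F/F, also a plain ratio to an unflagged spot, and at least 1.68-fold above it in LKO. Of these bounds, that for LKO minus F/F on chow (log2 -0.56) did not exceed the spread of replicate spots (0.65), and the levels on the LKO HFD and F/F chow arrays differed by 0.19, within the spread. Muc1, a mucin of the apical membrane, had signals of 15.8 in F/F chow, 8.62 in LKO chow, 15.7 in F/F HFD and 38.5 in LKO HFD, with LKO chow not well above background. On HFD, LKO was 2.18-fold above F/F (log2 1.13, spread 0.55), and on chow it was 1.76-fold below, a plain ratio to an unflagged spot. HFD differed from chow by -0.25 in F/F, within the spread, and was 3.22-fold above chow in LKO, again a plain ratio to an unflagged spot. Epcam and Muc1 shared the order LKO HFD, F/F chow, F/F HFD and LKO chow, although not all neighbours in it could be separated. With normexp, another background correction described below, the bounds of Epcam for LKO minus F/F were 0.06 (log2) on HFD and -0.03 on chow. Muc1 then gave 0.22 on HFD and a bound of -0.08 on chow. Prom1, a pentaspan membrane protein known from progenitor cells, was not well above background anywhere. The signals of its brighter probe were 1.84 in F/F chow, 3.27 in LKO chow, 8.25 in F/F HFD and 8.99 in LKO HFD, and those of the other lay between 1.82 and 1.95, so no fold is given.

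The stretch before the transcription start is printed for Epcam and Muc1, which shared an order of the arrays, and for Krt23, which had another. The sequences are those of RefSeq on build GRCm38.p6, and 6 of the 8 genes matched the promoter table (Krt19 and Sox9 did not), with 7 promoters, of which Prom1 has 2. Each run gives the 250 bases before the start, 5′ to 3′ on the gene's strand, at chr17:87635729-87635978 (plus strand) for Epcam, chr3:89228806-89229055 (plus strand) for Muc1 and chr11:99493121-99493370 (minus strand) for Krt23. Capitals mark matches on either strand to the GC box GGGCGG, the box named for its letters CCAAT, the TATA box TATAAA, the TEAD factor site GGAATG, the site TGGGAA of RBPJ (the DNA-binding protein of the Notch pathway) and the SOX factor site ACAAT, and no matches overlapped in these 3 runs.
Epcam: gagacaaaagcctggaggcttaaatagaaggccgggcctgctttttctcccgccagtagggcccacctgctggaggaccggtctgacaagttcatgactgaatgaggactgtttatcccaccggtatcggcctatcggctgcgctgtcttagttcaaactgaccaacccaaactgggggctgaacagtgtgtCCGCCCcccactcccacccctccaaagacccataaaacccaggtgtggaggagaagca
Muc1: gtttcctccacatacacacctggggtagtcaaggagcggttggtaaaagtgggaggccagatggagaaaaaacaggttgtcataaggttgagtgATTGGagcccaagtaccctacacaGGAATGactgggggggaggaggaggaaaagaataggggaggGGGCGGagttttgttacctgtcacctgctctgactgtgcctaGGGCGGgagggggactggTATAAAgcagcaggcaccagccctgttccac
Krt23: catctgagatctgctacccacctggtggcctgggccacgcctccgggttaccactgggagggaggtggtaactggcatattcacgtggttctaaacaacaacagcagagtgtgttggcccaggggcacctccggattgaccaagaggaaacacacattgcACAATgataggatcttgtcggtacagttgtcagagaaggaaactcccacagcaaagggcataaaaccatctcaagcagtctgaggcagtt
Muc1 held GC boxes that begin 91 and 49 bases before the start, a TATA box at 31, a TEAD site at 132 and a CCAAT box, on the opposite strand, at 156. Epcam held a GC box on the opposite strand at 58 bases, and Krt23 a SOX site at 90. Over the same 250 bases of all 32851 promoters in the table, 32.7% held the GC box, 33.8% the CCAAT box, 12.4% the TATA box, 12.6% the TEAD site, 21.6% the RBPJ site and 27.7% the SOX site. Of the 7 promoters of the marker genes, 5 held the GC box, 2 the CCAAT box and 1 each of the others. Whether any factor binds there was not measured.

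Cftr, the apical chloride channel of cholangiocytes, was well above background on the HFD arrays only. Its brighter probe had signals of 8.74 in F/F chow, 6.34 in LKO chow, 17.8 in F/F HFD and 16.5 in LKO HFD. HFD was 1.71-fold above chow in F/F, a plain ratio to an unflagged spot, and at least 1.47-fold above it in LKO. The latter bound (log2 0.55) was within the spread of replicate spots of 0.65. LKO differed from F/F on HFD by -0.28, within the spread (0.35), and on chow there is no value. Its other probe, with signals between 1.67 and 2.50, was not well above background on any array.

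Set against all genes, the markers as a group were mixed. The 4 comparisons share arrays, so their values stand side by side without a measure of agreement, and a gene with a bound counts at its bound. For LKO minus F/F on chow, 6 of the 8 genes had a value, of which 1 was higher and 5 lower, while 50.7% of all 14981 genes with a value were higher. The median was -0.44, against 0.00 for all genes, and 0 of the markers were at least 2-fold higher (1.11% of all genes) or lower (1.03%). With normexp, another background correction that draws dim probes together, the median was -0.10. Sox9 was then at -0.49, Krt19 at -0.12 and the bounds of Muc1 and Epcam at -0.08 and -0.03. Without this correction, the median over the 4 genes that passed on each array was -0.24. For LKO minus F/F on HFD, 7 had a value, 5 higher and 2 lower, with 45.9% of 15528 genes higher. The median was 0.64, against -0.03. Muc1 was at least 2-fold higher (2.36% of all genes) and Krt23 at least 2-fold lower (1.91%), and the bound of Epcam (log2 0.98) fell just short of 2-fold. With normexp the value of Krt23 was -1.40, while those of Sox9 (0.44), Krt19 (0.40), Muc1 (0.22) and Epcam (0.06) were smaller and the median was 0.06. For HFD minus chow in F/F, 4 were higher and 3 lower, with 47.8% of 15358 genes higher. The median was 0.23, against -0.02, with Krt23 at least 2-fold higher (5.21% of all genes) and Sox9 at least 2-fold lower (2.94%). For HFD minus chow in LKO, 5 were higher and 2 lower, with 43.5% of 15242 genes higher. The median was 0.55, against -0.07, with Krt19 and Muc1 at least 2-fold higher (8.12% of all genes) and none of the markers at least 2-fold lower (4.07%). With normexp the medians of both diet comparisons turned, to -0.01 in F/F and -0.06 in LKO, and neither Krt19 (0.85) nor Muc1 (0.16) was 2-fold higher in LKO. In F/F, Krt23 (1.22) and Sox9 (-1.14) kept their 2-fold differences, while Krt19 (0.33), the bound of Epcam (-0.19) and that of Cftr (0.01) were smaller. With 8 genes chosen with earlier results known, these shares are a description.

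**Figure D2:**
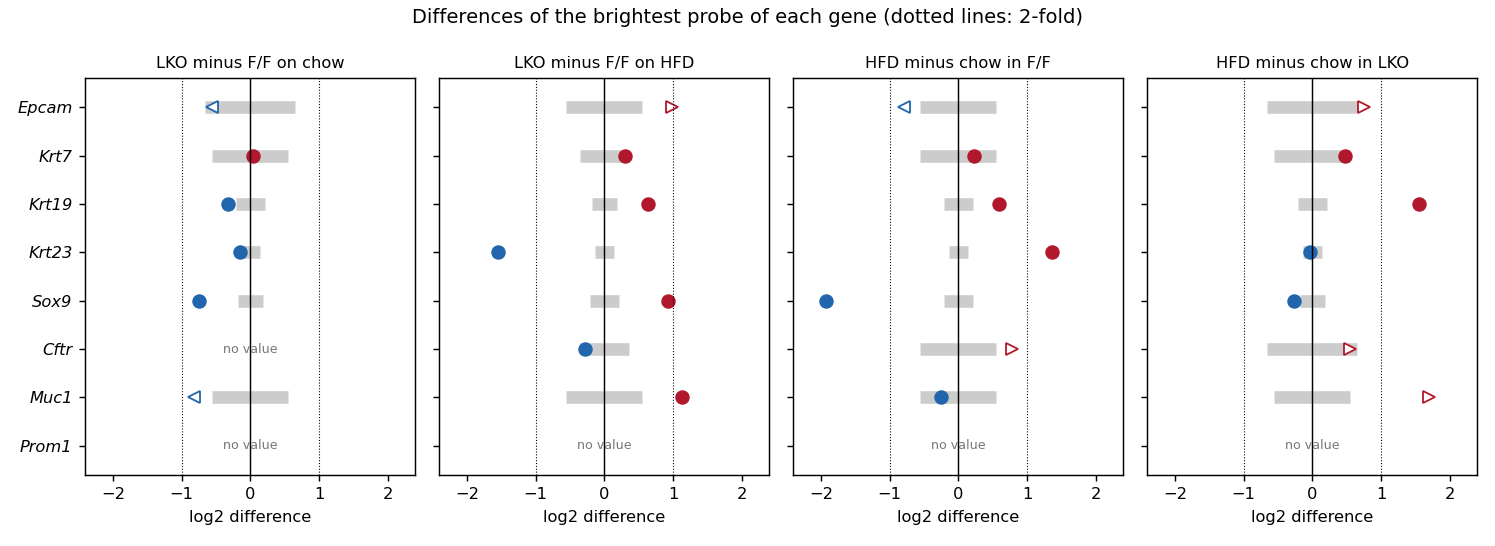
Log2 difference of the brightest probe of each marker gene in the 4 comparisons. Circles were measured on both arrays. Open triangles, drawn pointing away from 0, are bounds at the floor or plain ratios to an unflagged spot. Grey bars span plus and minus the technical spread (1 SD, 2 spots of the same probe) at the brightness of the dimmer array. On HFD, Muc1, Sox9, Krt19 and the bound of Epcam lie above 0 in LKO minus F/F and Krt23 lies below it, whereas on chow Sox9, Krt19 and the bounds of Epcam and Muc1 lie below 0.

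Other genes of the ductular reaction were higher in LKO on HFD more often than lower. Of 12 genes of this kind, most of them for surface or secreted proteins, 11 had a value for LKO minus F/F on HFD. Of the 11, 10 were higher (45.9% of all genes), and the median was 0.47. On chow, 3 of 10 were higher (50.7% of all genes) and the median was -0.26, or -0.17 with normexp, -0.12 with neither filter nor floor and -0.02 with the mean of a gene's probes. Tff3, a trefoil peptide of mucous epithelia, differed most, by 2.93 on HFD and 2.50 on chow. Mmp7 (matrilysin, made by injured duct cells) was 1.87 higher on HFD and 1.93 by its other probe, with -1.30 and -0.87 on chow, so that it lay below F/F on chow and above it on HFD as Sox9 and Muc1 did. Tnfrsf12a, the receptor of the cytokine TWEAK, was 1.43 higher on HFD, with -0.31 on chow. The smallest values on HFD were those of Ncam1 (-0.75), whose next probe gave 0.43, and Spp1 (osteopontin, 0.16). HFD was above chow by at least 2-fold for 6 of the 10 with a value in LKO (8.12% of all genes), namely Spp1, Cd24a, Mmp7, Tff2, Tnfrsf12a and Cd44, and for Spp1 alone in F/F (1.73, with 5.21% of all genes). Foxl1 was not well above background on any array.

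Epithelial keratins, junction proteins and membrane proteases gave a similar picture on HFD. Of 11 genes, 9 had a value for LKO minus F/F on HFD, 7 higher (45.9% of all genes) and 2 lower, with a median of 0.41, or 0.12 with normexp and 0.25 with the mean of a gene's probes. On chow 6 of 8 were higher (50.7% of all genes), with a median of 0.12. Cdh1 (E-cadherin), which hepatocytes express too, had signals of 156 in F/F chow, 136 in LKO chow, 135 in F/F HFD and 542 in LKO HFD, so that the last array stood apart (log2 1.84 against F/F). Prss8 (prostasin) was higher in LKO by 1.05 on HFD and by 0.99 on chow. The smallest differences among genes measured on both HFD arrays were those of Cldn3 (-0.09) and Itgb4 (0.08), and Cldn6 was at least 2-fold lower by its bound (log2 -1.41), with a signal over background on the F/F HFD array alone. Krt8 and Krt18, the keratins of hepatocytes and ducts alike, were above chow in LKO on HFD by 1.17 and 1.04, and in F/F by 0.93 and 0.78. Of 8 other keratins, which belong to stratified and other epithelia, 5 had a value for LKO minus F/F on HFD, with Krt17 (0.09) and Krt14 (0.09) at the top and Krt5 (-0.19) and Krt80 (0.07) at the bottom.

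Lists of duct transport, cilium and duct transcription genes follow. Of 8 transport genes, Sctr (secretin receptor), Slc5a1 and Ggt1 were not well above background on any array. The other 5 had a median of -0.21 for LKO minus F/F on HFD (-0.10 with the 3 dim genes let in), with Ano1 (0.08) and Aqp1 (0.01) at the top and Slc4a2 (-0.44) and Slc10a2 (-0.23) at the bottom. The 5 cilium and polycystic disease genes had a median of 0.07, or 0.26 with the mean of a gene's probes (on chow -0.06 and -0.35), from Pkd2 (0.20) and Bicc1 (0.19) down to Pkhd1 (-0.07) and Dcdc2a (-0.33). A dimmer probe of Dcdc2a gave a bound of 0.08, and both values of this gene were within the spread of replicate spots. Among 7 transcription factors, 6 had a value with a median of 0.15, or -0.06 with normexp, 0.03 over genes that passed on each array and 0.27 with the mean of a gene's probes. Sox4 (0.33) lay at the top, and Onecut2 (-0.20) and Onecut1 (-0.15) at the bottom. For HFD minus chow, Onecut1 was at least 2-fold lower in both genotypes (-1.10 in F/F and -1.17 in LKO), and Sox4 was about 2-fold higher in both.

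In the Notch pathway, which directs duct formation, 12 genes had a value for LKO minus F/F on HFD, 9 of them higher (45.9% of all genes), with a median of 0.26, or 0.09 with normexp and 0.16 with the 2 dim genes let in. Hey1, a target of the pathway, was 1.15 higher and Nrarp 0.92, while Notch1 (-0.23) and Rbpj (-0.22) lay at the other end. The other probe of Rbpj gave 0.08, within the spread of 0.18. HFD was above chow by at least 2-fold for 2 of 12 genes in F/F (5.21% of all genes), Hey1 (1.18) and Heyl (1.38), and for 3 of 12 in LKO (8.12%), Hey1 (1.66), Heyl (1.56) and the bound of Nrarp (1.37). In the Hippo-YAP pathway, also at work in duct cells, 8 of 13 genes were higher in LKO on HFD (45.9% of all genes), with a median of 0.08, from Tead2 (0.39) and Sav1 (0.28) down to Nf2 (-0.30) and Ccn1 (-1.25). Ccn1, a target of YAP, had its highest signal in F/F HFD, as Krt23 did, with 83.1 in F/F chow, 77.9 in LKO chow, 449 in F/F HFD and 212 in LKO HFD. Ccn2, another target, was above chow on HFD by 1.06 in F/F and by 0.90 in LKO.

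**Figure D3:**
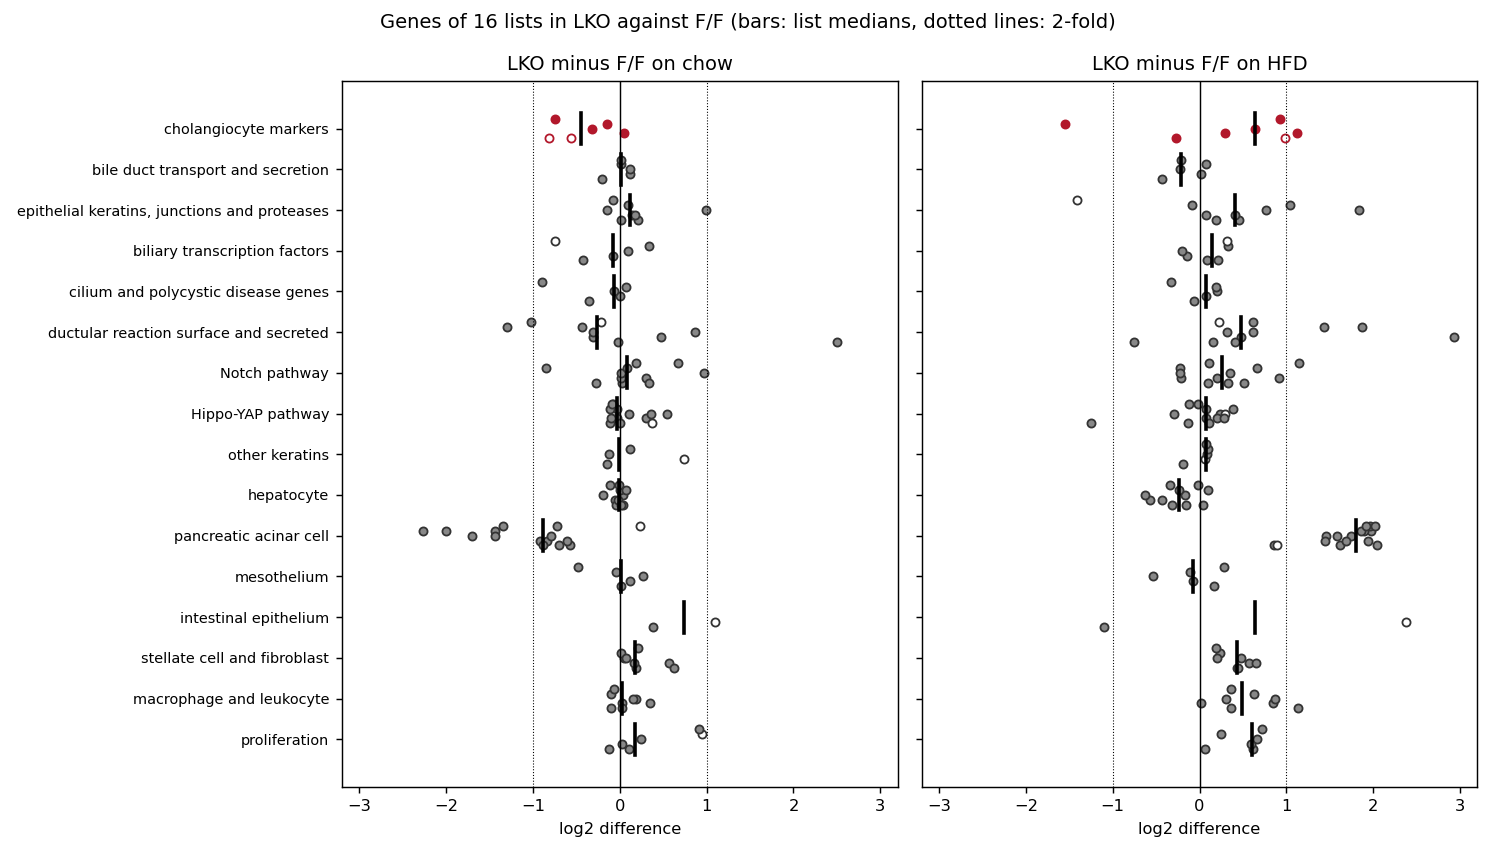
Log2 differences, LKO minus F/F, on chow (left) and on HFD (right) for the genes of 16 lists, by their brightest probe. Each point is a gene with a value, open where it is a bound, and black bars are list medians. The cholangiocyte markers have a median of -0.44 on chow and 0.64 on HFD, and the pancreatic acinar genes lie apart from the other lists on both diets, with medians of -0.88 and 1.80.

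Markers of other cell types moved between the same arrays. Of 20 genes of the pancreatic acinar cell, 15 had a value on chow, 1 higher in LKO (50.7% of all genes) and 14 lower, with a median of -0.88. On HFD 16 had a value, all 16 higher in LKO (45.9%), with a median of 1.80 and 14 at least 2-fold higher (2.36%). With normexp the medians were -0.56 and 1.18. Their summed level, which adds probe signals in units of each array's 75th percentile and ranks no gene's RNA against another's, was 26.3 in F/F chow, 15.5 in LKO chow, 14.2 in F/F HFD and 52.1 in LKO HFD. The probe with the highest signal was that of Amy2a5 (pancreatic amylase) on every array, and the other probe of this gene, which differed by -0.10 on HFD where the brighter gave 2.04, did not follow. On HFD, Pnliprp1 followed Amy2a5 with 2.02, and Ctrb1 (0.86) and Ctrl (1.44) were the lowest of those measured. Of 14 acinar genes measured on all arrays, 13 were highest in LKO HFD and 10 lowest in LKO chow. The share of all genes with these extremes was not counted. LKO HFD was also highest for 8 of 8 macrophage and leukocyte, 8 of 8 stellate cell and fibroblast and 8 of 9 ductular reaction genes. It was highest for 0 of 11 hepatocyte genes. The order of the acinar median was LKO HFD, F/F chow, F/F HFD and LKO chow. Epcam and Muc1 had this order too, although some of their neighbours in it lay within the spread of replicate spots. Tff2 and the brighter probe of Mmp7 had this order too, while the median of their ductular reaction list was higher in F/F HFD than in F/F chow. Prss1, Pla2g1b, Cuzd1 and Ptf1a, the last a defining transcription factor of acinar cells, were not well above background on any array. Pancreatic ducts also express several of the 8 markers, and the part of acinar or other pancreatic RNA in the results for these markers was not tested. Krt23 did not share this order, nor did Krt19, which was higher in F/F HFD than in F/F chow, or Sox9, which was highest in F/F chow.

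**Figure D4:**
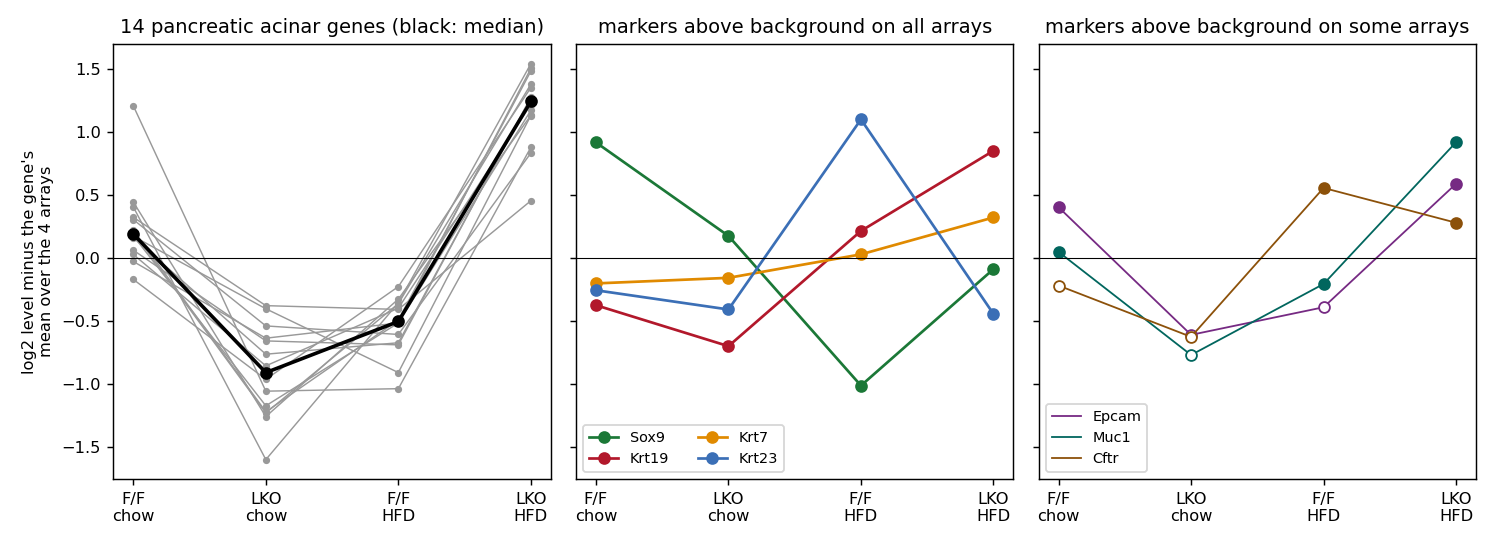
Log2 levels on the 4 arrays minus each gene's mean over them, for the 14 pancreatic acinar genes well above background on all arrays (left), for the 4 cholangiocyte markers well above background on all arrays (middle) and for Epcam, Muc1 and Cftr (right), with open points where a marker was not well above background. The acinar median, Epcam and Muc1 are highest in LKO HFD and lowest in LKO chow, Sox9 is highest in F/F chow and Krt23 in F/F HFD. For Epcam, LKO HFD is within the spread of replicate spots from F/F chow, and LKO chow from F/F HFD.

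In most macrophage and leukocyte, stellate cell and fibroblast, and proliferation genes, LKO lay above F/F on HFD. By the brightest probe, with 45.9% of all genes higher, this held for 8 of 8 macrophage and leukocyte genes (median 0.49), from Cd14 (1.14) and Lyz2 (0.87) down to Clec4f (0.31) and Itgam (0.01), for 8 of 8 stellate cell and fibroblast genes (0.43), from Lum (0.65) and Des (0.57) down to Dcn (0.21) and Reln (0.19), and for 6 of 6 proliferation genes (0.60), from Ccna2 (0.72) and Ccnb1 (0.67) down to Cdk1 (0.25) and Pcna (0.06). With normexp the proliferation median was 0.22. The values of Itgam and Pcna were within the spread of 0.07, and a dimmer probe of Itgam was 1.85-fold lower in LKO, a plain ratio to an unflagged spot. On chow, LKO was higher in 5 of 8 macrophage and leukocyte genes, with a median of 0.03 (50.7% of all genes were higher). The counts there were 8 of 8 for stellate cell and fibroblast genes (0.17) and 5 of 6 for proliferation genes (0.18). The summed level of the macrophage list, led by Csf1r, was 49.7 in F/F chow, 50.7 in LKO chow, 65.3 in F/F HFD and 88.2 in LKO HFD. That of the stellate cell list, led by Dcn, was 70.6, 74.6, 93.4 and 109.5 in the same groups, and that of proliferation, most of it the signal of Pcna, 9.69, 9.05, 9.08 and 9.95. The other 5 proliferation genes, Mki67, Top2a, Ccnb1, Cdk1 and Ccna2, were at least 2-fold higher on HFD in both genotypes (5.21% of all genes in F/F and 8.12% in LKO). The list medians were 1.24 in F/F and 1.51 in LKO, and 0.40 in each with normexp. Krt19 and Muc1 were highest in LKO HFD as these sums were, and so were Epcam and Krt7, although within the spread of the next array, and the part of these cells in the results was not tested.

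Hepatocyte, mesothelial and intestinal genes come last. Of 11 hepatocyte genes, 2 were higher (45.9% of all genes) and 9 lower in LKO on HFD, with a median of -0.24, or -0.14 with normexp and -0.11 with quantile normalization. They ranged from Fgb (0.10) and Cps1 (0.04) down to Tat (-0.57) and Tdo2 (-0.62). Their summed level, led by Alb, was 3959 in F/F chow, 3977 in LKO chow, 3055 in F/F HFD and 2621 in LKO HFD. Of 7 mesothelial genes, which the liver capsule expresses, 6 have a probe (Muc16 has none) and Lrrn4 was not well above background. The other 5 had a median of -0.08 on HFD, or 0.01 with normexp, from Gpm6a (0.28) and Msln (0.17) down to Wt1 (-0.11) and Upk1b (-0.53), and the sum, led by Msln, was 1.09 in F/F chow, 1.10 in LKO chow, 1.14 in F/F HFD and 1.21 in LKO HFD. Of 8 intestinal genes, Sis, Muc2, Cdx1, Cdx2 and Alpi were not well above background on any array. Fabp2, which liver also expresses, made up over 99% of their sum, which was 63.1 in F/F chow, 82.3 in LKO chow, 157 in F/F HFD and 73.5 in LKO HFD, and was lower in LKO on HFD (-1.10). Vil1 (villin), found in bile duct brush borders too, was well above background in LKO HFD alone, where it was at least 2-fold higher than in F/F (log2 bound 2.38), and Lct in LKO chow alone.

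The genes whose profile was most like that of the markers were sought over the 4 arrays. The mean level of Krt7, Krt19, Krt23 and Sox9 ranged over only 0.43, from LKO chow to LKO HFD, since their differences partly cancelled. Of 7808 genes that passed on each array with at least that range, the highest Pearson r with this mean were those of Spink4, Antxr1, Dact3, Fam117a and Il13ra2, each over 0.99, and with 4 points and so many genes values this high are easily reached. By distance of the 4 levels centred on their mean, among 6641 genes with a range of at least 0.5, the nearest gene to Krt19 was Ly6a (0.05), with signals of 236 in F/F chow, 187 in LKO chow, 441 in F/F HFD and 747 in LKO HFD. The nearest to Krt7 was Armc10 (0.02), to Krt23 Osbpl5 (0.12) and to Sox9 Cox8b (0.20). Osbpl5 had signals of 355 in F/F chow, 310.4 in LKO chow, 991 in F/F HFD and 427 in LKO HFD, and was thus high on the same single array as Krt23.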

How the data were processed

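Liver RNA of 4 groups was measured on 4 one-colour Agilent arrays of 1 slide, read in 1 scan. The authors deposited each spot's intensity from Agilent Feature Extraction 12.0.3.1, background-subtracted and detrended, with median and local background intensity, its error and other flags (outlier, saturation, well above background). Their value table, also deposited as intensity, equals that signal times 1 factor per array (2.60 in F/F chow, 2.63 in LKO chow, 2.41 in F/F HFD, 2.10 in LKO HFD). Its medians were 34.5, 33.2, 36.1 and 36.0, and how its factors were made is not stated.

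From the deposited intensity, log2 minus the 75th percentile of non-control spots was computed in pandas 2.3.3, numpy 2.4.6 and Python 3.11.15. Spots of a probe were averaged without outliers, and there were 0 saturated spots. Of 56605 probes, 33767 matched RefSeq transcripts (GRCm38.p6), and the brightest probe stood for a gene. Spots well above background made up 54.2%, 53.0%, 54.6% and 57.0% of the arrays in the order above. Spread came from 300 probes of 10 spots each.

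Members and lists were chosen with earlier results of these data known. Named are all 8 genes, up to 2 of the highest and 2 of the lowest of each list for LKO minus F/F on HFD that passed background on both arrays, some of the genes past 2-fold, and the nearest profiles (5 by correlation, 1 by distance per marker). The 10 alternatives were normexp with offset 50 (limma 3.58.1, R 4.3.3) on the median signal, quantile normalization, 2 other bases for the percentile, the deposited table, neither filter nor floor, genes above background on all arrays, probe means and thresholds of 1.5-fold and 4-fold. Steps were tested on simulated data. Figures used matplotlib 3.10.9.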

Additional observations from a re-analysis of the deposited data

Results flagged for a closer look

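Genotype differences that ran in opposite directions on the 2 diets, each larger than the spread of replicate spots without the normexp correction, are given here. How the diets differ in this was not tested. For Krt19, LKO minus F/F was -0.33 on chow and 0.64 on HFD, 0.96 apart on the log2 scale. With normexp, for which no spread of replicate spots was computed, it was -0.12 and 0.40. For the brighter probe of Sox9 it was -0.74 and 0.92, which is 1.67 apart, and the dimmer probe gave 0.80 with smaller differences. With normexp the values for Sox9 were -0.49 and 0.44. For Muc1 it was -0.82, a plain ratio to an unflagged spot, and 1.13, which is 1.94 apart. With normexp both were smaller, at -0.08 and 0.22, and these too have no spread on that scale.

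The effect of diet ran in opposite directions in the 2 genotypes for Epcam, where HFD minus chow was -0.79 in F/F and 0.75 in LKO, 1.54 apart. The value in F/F is a plain ratio to an unflagged spot, and that in LKO is a bound at the floor. With normexp the value in F/F was -0.19, and in LKO there was none. This difference was not tested either.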

How the results depend on the processing

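Under the 8 alternatives that keep the fold threshold, 185 values of single markers moved by less than the spread of replicate spots and 16 by more. Among medians, 20 of the markers' and 401 of the other lists' moved by less than 0.10, the spread over all replicated probes well above background, 9 and 64 by more, and 3 and 15 that were larger than this spread changed sign. Another 13 list medians, not listed below, and 4 values of single markers also changed sign, all smaller than the spread in the report. The deposited table gave identical values. The cause was not tested for any change below.

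Normexp, offset 50: the markers' median was -0.10 on chow and 0.0586 on HFD for LKO minus F/F (-0.44 and 0.64 in the report), and -0.0113 in F/F and -0.0639 in LKO for HFD minus chow (0.23 and 0.55). Markers at least 2-fold higher were 0 for LKO minus F/F on HFD and 0 for HFD minus chow in LKO. Krt7, always within the spread in the report, changed sign in 3 comparisons. Medians past the spread that changed sign were those of duct transcription factors (-0.0634) and intestine (-0.24) for LKO minus F/F on HFD, ductular reaction (-0.0225) and Notch (-0.0166) for HFD minus chow in F/F, and duct transcription factors (-0.28) and Notch (-0.11) in LKO. Genes at least 2-fold higher and lower were 20 and 19, 94 and 85, 211 and 147, 428 and 239 in the 4 comparisons, against 167 and 154, 366 and 296, 800 and 452, 1238 and 621.

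Neither filter nor floor: the median was 0.46 for LKO minus F/F on HFD and 0.41 (F/F) and 0.95 (LKO) for HFD minus chow, with 1 marker at least 2-fold lower in LKO on chow and 2 higher on HFD in F/F. Past the spread and changed in sign were intestine (-0.30, LKO minus F/F on HFD), and ductular reaction (-0.0824), Notch (-0.00852) and intestine (-0.16) for HFD minus chow in F/F. All-gene counts were 672 and 807, 996 and 889, 1366 and 1351, 1912 and 1508.

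Genes above background on all arrays (4 markers): medians were -0.24 on chow and 0.46 on HFD for LKO minus F/F, and 0.41 (F/F) and 0.22 (LKO) for HFD minus chow, with 0 markers at least 2-fold higher in LKO on HFD and 1 for HFD minus chow in LKO. Past the spread and changed in sign were intestine (-1.10, now Fabp2 alone), ductular reaction (-0.0570, HFD minus chow in F/F) and duct transcription factors (-0.0385, in LKO). All-gene counts for LKO minus F/F were 76 and 75 on chow, 199 and 170 on HFD.

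Other scaling and probes: with probe means, HFD minus chow in F/F was -0.0120 for the markers and 0.17 for mesothelium. Quantile normalization gave 0.0892 for intestine (HFD minus chow in LKO), and the percentile of bright probes gave 2 markers at least 2-fold higher in LKO on HFD. At 1.5-fold, 2 markers were lower in LKO on chow, 4 higher in LKO on HFD, and for HFD minus chow in F/F 3 were higher and 2 lower. At 4-fold, 0 markers were higher or lower in any comparison. The shares of all genes past 1.5-fold and 4-fold were not computed, so these counts stand without a comparison.

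No paired analysis was possible because each group has 1 array. Differences between mice, dissection and RNA preparation are therefore part of every value. Signals near background limit Epcam, Cftr, Muc1 and Prom1 most. Of the spots on an array, 53.0% to 57.0% were well above background. The share of duct, pancreatic or other RNA was not measured.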
